A study of Mus musculus with 24 samples.

Results

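The interferon response genes described here are 36 mouse genes known to be switched on by interferons: transcription factors, antiviral effectors, RNA sensors, ubiquitin-like and ADP-ribosylation proteins, GTPases and chemokines. They were taken by gene symbol from a written list, with the brightest probe set standing for each gene, and all 36 were measured among the 30827 named genes of the arrays. RNA was measured on 24 Affymetrix MTA 1.0 arrays of mouse colon fibroblasts sorted as Epcam-, CD45-, CD31- and gp38+ cells, gp38 being podoplanin. All mice carried Villincre-ERT2-ZsGreen, in which the Villin promoter drives an inducible Cre in the intestinal epithelium. The genotypes were IhhWT-ApcWT (called WT, 7 arrays), IhhWT-ApcKO (called ApcKO, 8 arrays) and IhhKO-ApcKO (called IhhKO_ApcKO, 9 arrays). Apc restrains Wnt signalling, and Ihh is the Hedgehog ligand of the colon epithelium. The deletions were therefore made in epithelial cells, while the RNA came from neighbouring fibroblasts, so a level of Apc or Ihh in these arrays would not test a deletion. Age, sex and time after induction were not given in the sources used here. Nothing in the labels says that the arrays come from different mice; the p-values measure the spread between these samples, which may be technical.

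Interferons are secreted cytokines. Type I and type III interferons act through receptors that bring together STAT proteins and IRF9 into a complex that binds the interferon-stimulated response element (ISRE), whereas interferon gamma acts mainly through a STAT dimer that binds the gamma-activated site (GAS). The induced proteins cut or trap foreign RNA, block virus entry and budding, tag proteins with ISG15, disrupt the vacuoles of intracellular microbes and attract T cells. In the gut, a low level of this programme is kept up in the absence of infection, in part by signals from the microbiota.

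Promoter letters are shown first because both elements recur in them and because the genes shown carry the results that follow. RefSeq promoter windows (GRCm38.p6, from 250 bases before to 50 bases after a start site) were matched by symbol for 27 of the 36 genes. An ISRE core, GAAANNGAAA on either strand, lay in the windows of 15 of the 27 genes (55.6%), against 3.99% of the 27025 genes with such windows. A GAS core, TTCNNNGAA, whose letters read the same way on both strands, lay in 7 of the 27 (25.9%), against 9.55% of all. The 4 genes with both were Bst2, Eif2ak2, Igtp and Oas1a. In all there were 23 ISRE matches, and those upstream of a start site, in 13 genes, began between 14 and 222 bases before it. The 150 bases before the start site are given 5′ to 3′ on the gene's own strand for 5 genes, with ISRE and GAS matches in capitals. Igtp (chr11:58199406-58199555, plus strand) and Bst2 (chr8:71537473-71537622, minus strand) have both motifs; the Bst2 matches overlap. Gbp3 (the first of its start sites, chr3:142559894-142560043, plus strand) and Isg15 (chr4:156200819-156200968, minus strand) have overlapping ISRE matches, and Irf1 (chr11:53769864-53770013, plus strand) has a GAS match alone.
Igtp: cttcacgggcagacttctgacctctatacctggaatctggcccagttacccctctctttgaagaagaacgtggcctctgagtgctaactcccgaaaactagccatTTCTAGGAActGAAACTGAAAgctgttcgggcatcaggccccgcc
Bst2: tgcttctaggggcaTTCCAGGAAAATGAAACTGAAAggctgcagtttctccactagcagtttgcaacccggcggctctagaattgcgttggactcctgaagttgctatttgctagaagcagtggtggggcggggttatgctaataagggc
Gbp3: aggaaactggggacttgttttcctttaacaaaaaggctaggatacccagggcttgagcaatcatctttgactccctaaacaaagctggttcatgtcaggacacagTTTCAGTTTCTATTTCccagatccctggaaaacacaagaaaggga
Isg15: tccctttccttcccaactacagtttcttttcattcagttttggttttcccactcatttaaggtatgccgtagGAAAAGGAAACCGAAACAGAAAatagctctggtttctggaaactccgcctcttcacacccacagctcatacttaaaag
Irf1: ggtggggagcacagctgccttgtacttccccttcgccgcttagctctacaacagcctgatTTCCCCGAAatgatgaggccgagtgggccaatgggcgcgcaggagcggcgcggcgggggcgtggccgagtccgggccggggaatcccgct
These are matches of letters in a reference sequence and not measured binding.

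The sort was checked against markers of the cell types that the gate could hold. On the log2 scale of the deposited RMA values (a robust multi-array average per probe set), 11 fibroblast markers averaged 10.35 in WT, 10.31 in ApcKO and 10.24 in IhhKO_ApcKO. Leukocyte markers (13 genes) averaged 5.34, 5.36 and 5.43, and the level of Ptprc, which encodes CD45, was between 2.82 and 3.21 on every array, near the array medians of antigenomic background probe sets (2.676 to 3.153). The brightest of the 13, Cd68, averaged 9.08, 9.15 and 9.07 in WT, ApcKO and IhhKO_ApcKO. These levels were above the 95th percentile of the negative controls (8.214). In IhhKO_ApcKO against ApcKO, 11 of 13 leukocyte markers were higher (56.6% of all genes) and 9 of 11 fibroblast markers lower (43.4%). Against WT, 11 of 13 were higher (44.9%) and 9 of 11 lower (55.1%). In ApcKO against WT, 6 of 13 leukocyte markers were higher (39.4%) and 8 of 11 fibroblast markers lower (60.6%). None of either list had a limma adjusted p under 0.05. Epithelial markers (16 genes) averaged 6.92 ± 0.72 on the WT arrays (SD, n = 7), 7.45 ± 0.74 on the ApcKO arrays (SD, n = 8) and 7.15 ± 0.87 on the IhhKO_ApcKO arrays (SD, n = 9), from 5.65 to 8.37 over all arrays. Their means ran opposite to those of the interferon response genes. Of the 16, 15 were higher in ApcKO than in WT (mean difference 0.53), against 39.4% of all genes. In IhhKO_ApcKO, 15 of 16 were lower than in ApcKO (-0.30), against 43.4% of all genes. Of the 16, 0 had an unadjusted p under 0.05 in limma's test in either comparison. Beyond the fit with their mean as a covariate, their part in the results was not tested. Blood endothelial markers (9 genes) averaged 5.67, 5.64 and 5.64 in WT, ApcKO and IhhKO_ApcKO, and lymphatic endothelial markers (5 genes) 4.79, 4.74 and 4.68. The brightest of the former, Tek, averaged 8.64, 8.53 and 8.15. No gene of these 2 lists had a limma adjusted p under 0.05, and their part in the results was not tested. In such bulk RNA, fewer cells of a type and less RNA per cell cannot be told apart. Array medians lay between 4.963 and 5.141. The Hedgehog feedback genes Gli1, Ptch1 and Hhip averaged 9.05 ± 0.24 on the ApcKO arrays (SD, n = 8) and 7.72 ± 0.46 on the IhhKO_ApcKO arrays (SD, n = 9), and all 3 passed the test between them. The library labelled IhhKO_ApcKO B9 stood apart from its group: its mean of these genes was 8.83, inside the ApcKO range of 8.59 to 9.33. Its Gli1 level, 7.99, was above the IhhKO_ApcKO mean of 6.92 but just below the lowest ApcKO array (8.03 on B8). The main IhhKO_ApcKO values are therefore also given without B9.

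The mean of the 36 interferon response genes was lowest and least variable in ApcKO. It was 7.12 ± 0.19 on the WT arrays (SD, n = 7), 6.89 ± 0.05 on the ApcKO arrays (SD, n = 8) and 7.14 ± 0.23 on the IhhKO_ApcKO arrays (SD, n = 9). The WT arrays ran from 6.80 on A6, the lowest of all 24 arrays, through a median of 7.10 to 7.36 on A1. The ApcKO arrays lay in a narrow band from 6.82 to 6.97, with a median of 6.87. The IhhKO_ApcKO arrays ran from 6.84 on C3 through a median of 7.13 to 7.49 on C1. All 8 ApcKO arrays lay below the WT mean, and 7 of 9 IhhKO_ApcKO arrays lay above every ApcKO array, the others being C3 and B9 (6.86). Without B9, the IhhKO_ApcKO mean was 7.17 ± 0.22 (SD, n = 8). The group ranges overlapped in every pairing. Because the genes were chosen with earlier results of these data known, no test was made of the mean.

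**Figure D1:**
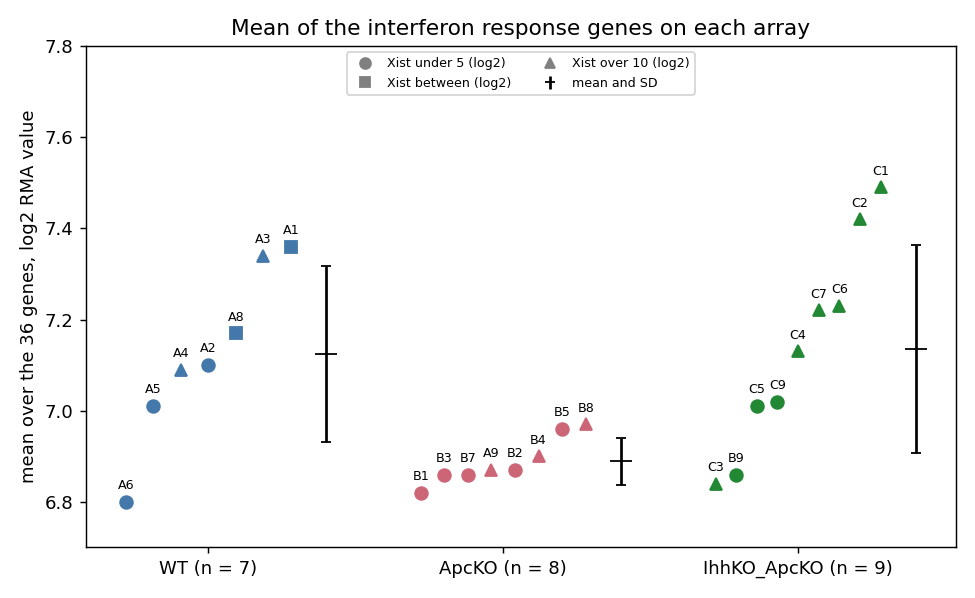
Mean log2 RMA value over the 36 interferon response genes (y axis) on each array, by genotype, with the group mean and SD beside the points; circles, squares and triangles mark arrays with Xist under 5, between 5 and 10, and over 10 (log2). The 8 ApcKO arrays sit between 6.82 and 6.97, while WT arrays spread from 6.80 to 7.36 and IhhKO_ApcKO arrays from 6.84 to 7.49.

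The comparison of ApcKO with WT addressed the fibroblast response to epithelial Apc loss. All 36 genes had a lower mean in ApcKO, against 60.6% of all genes, with a median difference of -0.20 log2 units against -0.021 over all genes. In limma's test across all genes, adjusted by Benjamini-Hochberg, 0 of the 36 passed (adjusted p of 0.97 or more for each), as did 0.0% of all 30827 genes. At an unadjusted p under 0.05, 13 of the 36 (36.1%) were lower, against 3.12% of all genes. That count of 13 fell to 5 without WT A1 and 7 without WT A3, and was 18 without WT A6. The mean difference over the genes was -0.24, and it lay between -0.29 without WT A6 and -0.20 without WT A1 when single arrays were left out.

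The comparison of IhhKO_ApcKO with ApcKO addressed the loss of epithelial Ihh beside that of Apc. Of the 36 genes, 35 had a higher mean in IhhKO_ApcKO, against 56.6% of all genes, and the median difference was 0.20 against 0.011 over all genes. The exception was Irf1 (-0.046). None of the 36 passed limma's adjusted test, which called 14 of 30827 genes (0.0454%). At an unadjusted p under 0.05, 15 of the 36 (41.7%) were higher, against 2.6% of all genes. Apart from the fit with the sample code letter as a block, given below, that count of 15 ran from 11 to 24. It was 11 without C1, 24 with array weights and 20 without B9, the last with 35 of the 36 genes again higher. The mean difference was 0.25, and 0.28 without B9. This comparison and the one with WT share the 8 ApcKO arrays.

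Between IhhKO_ApcKO and WT, 19 genes were higher and 17 lower, with a median difference of 0.013 and a mean difference of 0.011 (0.046 without B9). Again 0 of the 36 passed, where limma called 25 of all genes (0.0811%). At an unadjusted p under 0.05, Isg15 and Oas1a were higher, 2 of 36 (5.56%) against 3.05% of all genes. No gene of the 36 had groups without overlap in any of the 3 comparisons; over all genes, 2, 7 and 22 had such groups.

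**Figure D2:**
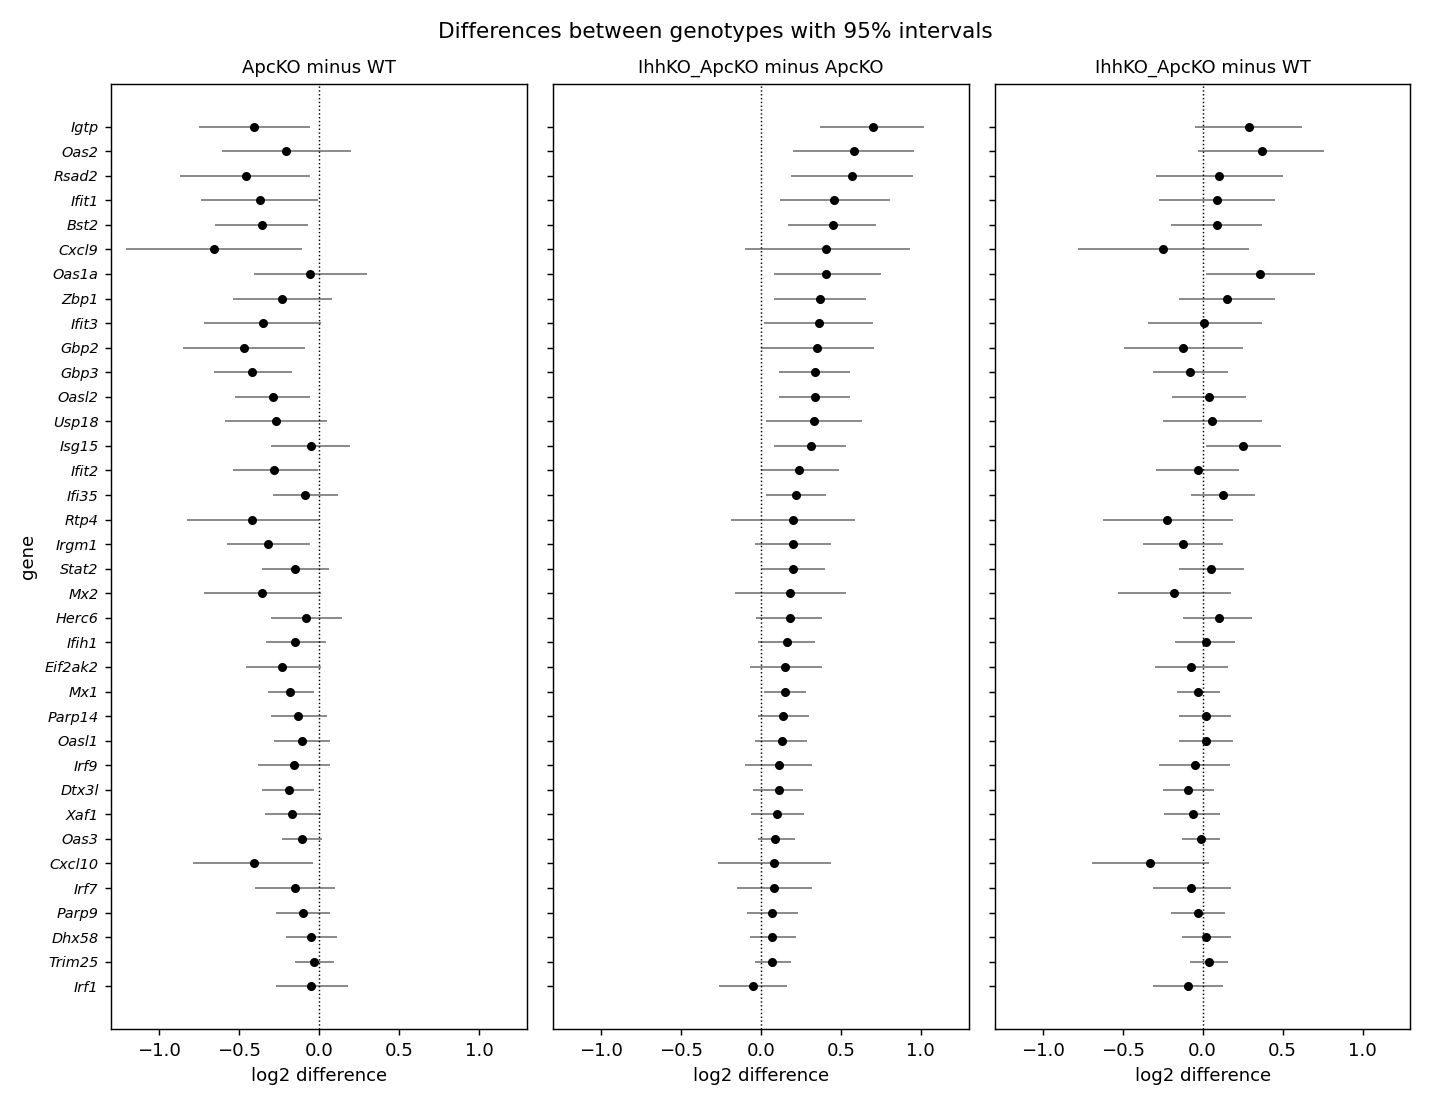
Log2 difference of group means for each of the 36 genes (points) with the 95% confidence interval of the limma fit (lines) in the 3 comparisons, ordered by the difference IhhKO_ApcKO minus ApcKO. All points of ApcKO minus WT lie below 0, all but Irf1 lie above 0 in IhhKO_ApcKO minus ApcKO, and the points of IhhKO_ApcKO minus WT lie on both sides.

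The sample codes begin with a letter whose meaning is not stated and that nearly matches genotype: A for WT, B for ApcKO apart from A9, and C for IhhKO_ApcKO apart from B9. With the letter as a block, ApcKO minus WT rests on A9 against the WT arrays, and the mean difference was -0.25, with 30 of 36 genes lower and 6 at an unadjusted p under 0.05. IhhKO_ApcKO minus ApcKO then rests on B9 alone against the ApcKO arrays with a B, and the mean difference was -0.034, with 14 of 36 genes higher and 1 at an unadjusted p under 0.05. Apart from those arrays, letter and genotype cannot be told apart, and B9 is the array whose mean of the Hedgehog feedback genes was inside the ApcKO range.

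Xist, which is transcribed from the inactive X chromosome, split the arrays and was unevenly spread over genotypes. In WT, 3 arrays had a level under 5, 2 a level over 10, and A1 and A8 lay between; in ApcKO, 5 were under 5 and 3 over 10; in IhhKO_ApcKO, 3 were under 5 and 6 over 10. Within the arrays under 5, the mean of the 36 genes was 6.97 ± 0.16 for WT (SD, n = 3), 6.87 ± 0.05 for ApcKO (SD, n = 5) and 6.96 ± 0.09 for IhhKO_ApcKO (SD, n = 3). Within the arrays over 10 it was 7.22 ± 0.18 (SD, n = 2), 6.92 ± 0.05 (SD, n = 3) and 7.22 ± 0.23 (SD, n = 6). The difference ApcKO minus WT was thus -0.099 among low-Xist and -0.30 among high-Xist arrays, with 30 and 32 of 36 genes lower. The difference IhhKO_ApcKO minus ApcKO was 0.090 and 0.31, with 23 and 35 of 36 genes higher. The low-Xist IhhKO_ApcKO arrays were B9 (mean of the 36 genes 6.86), C5 (7.01) and C9 (7.02), and their difference was not computed without B9. With the Xist level as a covariate the mean differences were -0.22 and 0.20. Whether the 2 kinds of array differ in their response was not tested.

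The 4 transcription factors of the list had a mean difference of -0.13 for ApcKO minus WT, against -0.24 over the 36 genes. All 4 were lower in ApcKO, against 60.6% of all genes. For IhhKO_ApcKO minus ApcKO the mean difference was 0.086, against 0.25 over the 36 genes, with 3 of 4 higher (56.6% of all genes). Irf9 and Stat2, the parts of the complex that binds the ISRE, were at 8.41 ± 0.21 (SD, n = 7) and 8.69 ± 0.19 (SD, n = 7) in WT. In ApcKO, Irf9 was lower by 0.16 (SE 0.11) and Stat2 by 0.15 (SE 0.10). Stat2 had a difference of 0.20 (SE 0.096) in IhhKO_ApcKO over ApcKO, where Irf9 had 0.11 (SE 0.10). Irf7, which amplifies type I interferon production, ranged from 7.14 to 8.31 in WT but only from 7.51 to 7.75 in ApcKO. Irf1, the early factor of the gamma pathway, lay between 8.70 and 9.50 in WT (median 9.15), 8.90 and 9.34 in ApcKO (median 9.06) and 8.58 and 9.26 in IhhKO_ApcKO (median 9.11). Its groups overlapped almost fully, with differences of -0.047 (SE 0.11) and -0.046 (SE 0.10).

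The 13 RNA-binding and nucleotide effectors had mean differences of -0.25 and 0.31. They include the IFIT proteins, which bind foreign RNA ends, the OAS enzymes, which make the activator of RNase L, and the Mx GTPases, which trap viral nucleocapsids. In the group, 5 genes had an unadjusted p under 0.05 for ApcKO minus WT (5 of 13 or 38.5% lower, against 3.12% of all genes) and 8 for IhhKO_ApcKO minus ApcKO (61.5% higher, against 2.6%), and none an adjusted p under 0.05. Oas2 ran from 5.63 through 5.80 to 6.60 in WT (lowest, median, highest), from 5.40 through 5.72 to 6.08 in ApcKO and from 5.51 through 6.44 to 7.02 in IhhKO_ApcKO. Its 5 highest arrays of IhhKO_ApcKO lay above every ApcKO array, and the difference was 0.58 (SE 0.18, limma adjusted p = 0.52), or 0.61 without B9 (limma adjusted p = 0.41). Oasl2, which belongs to the same family, had a narrow ApcKO group, 6.63 to 6.93 (median 6.80), against 6.65 to 7.52 in WT (mean 7.08) and 6.67 to 7.48 (median 7.13) in IhhKO_ApcKO. Oasl2 was lower in 8 of 8 ApcKO arrays than the WT mean, by 0.29 (SE 0.12, limma adjusted p = 0.97). In IhhKO_ApcKO, 7 of 9 arrays lay above every ApcKO array, at a difference of 0.34 (SE 0.11, limma adjusted p = 0.52), or 0.38 without B9 (limma adjusted p = 0.24).

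Rsad2 encodes viperin, which makes a chain-terminating ribonucleotide. Its values were 5.23, 5.64 and 6.13 in WT (lowest, median, highest), 4.99, 5.12 and 5.56 in ApcKO, and 4.91, 5.93 and 6.51 in IhhKO_ApcKO. The ApcKO mean was lower than the WT mean by 0.46 (SE 0.20) and lower than the IhhKO_ApcKO mean by 0.57 (SE 0.19, limma adjusted p = 0.54), and the IhhKO_ApcKO arrays held both the lowest value, on B9, and the highest, on C2. Without B9 the latter difference was 0.67 (limma adjusted p = 0.16). Mx1 ranged only from 4.63 to 5.25 over all arrays, near the negative control median of 4.649, with a difference of -0.18 (SE 0.069) in ApcKO. Oas1a departed from the others: its WT arrays lay between 6.23 and 6.46, the ApcKO arrays between 5.97 and 7.06, and the IhhKO_ApcKO arrays between 5.96 and 7.21. Of the 9 IhhKO_ApcKO arrays, 6 lay above every WT array and 2 below every one, with a mean difference of 0.36 (SE 0.17, limma adjusted p = 0.63). Zbp1, a sensor of Z-form nucleic acid, differed by 0.37 (SE 0.14) between IhhKO_ApcKO and ApcKO, and Ifit1 by 0.46 (SE 0.17). The kinase gene Eif2ak2, whose product PKR halts translation, differed by -0.23 (SE 0.12) and 0.15 (SE 0.11). Ifit3, a partner of Ifit1, differed by -0.35 (SE 0.18) and 0.36 (SE 0.17), and Ifit2 by -0.28 (SE 0.13) and 0.24 (SE 0.12). Mx2 had a wide WT group, from 6.60 on A6 to 8.17 on A3, and differed by -0.36 (SE 0.18) and 0.18 (SE 0.17). The smallest differences of the group for IhhKO_ApcKO minus ApcKO were those of Oas3, 0.094 (SE 0.057), and Oasl1, 0.13 (SE 0.078). The RNA sensors Ifih1 (MDA5) and Dhx58 (LGP2) had differences of -0.15 (SE 0.092) and -0.050 (SE 0.077) for ApcKO minus WT.

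**Figure D3:**
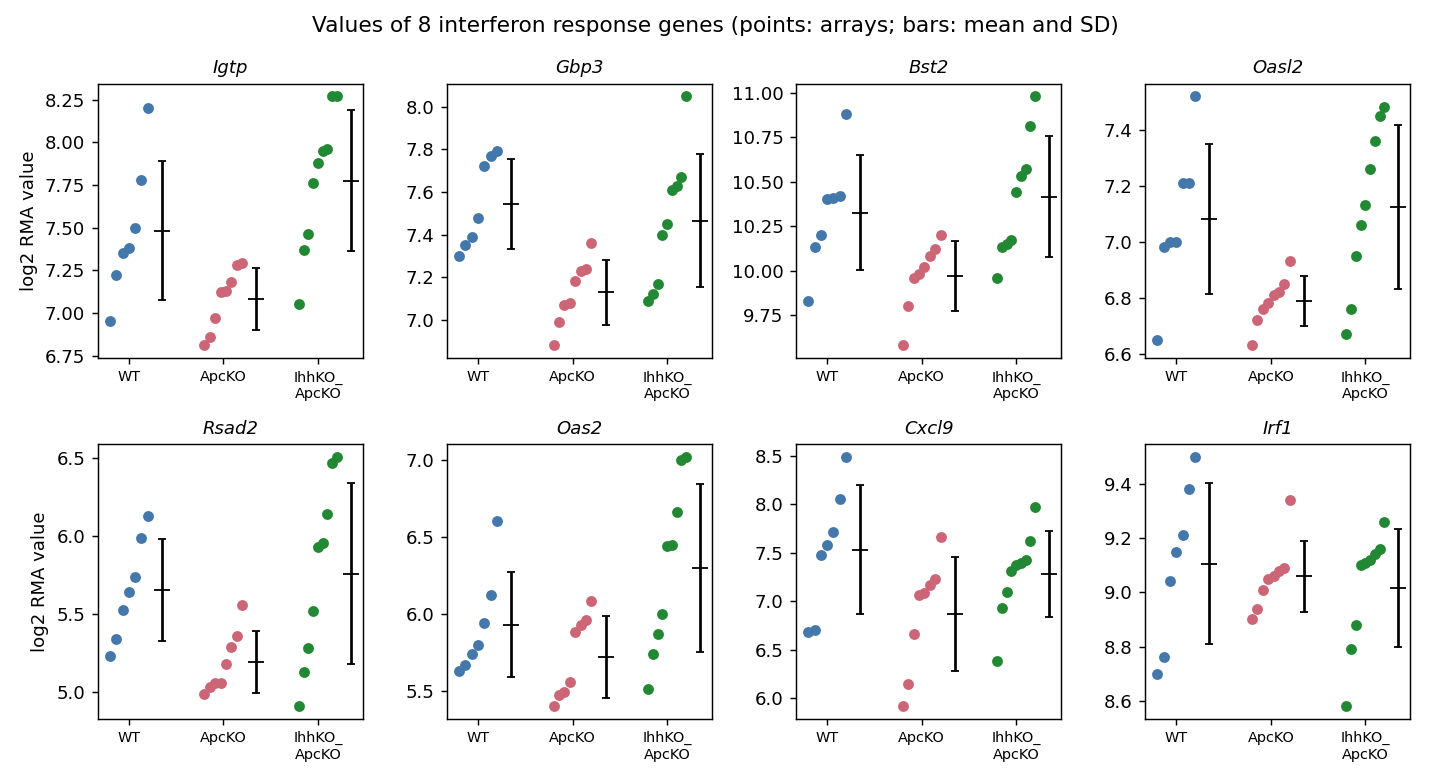
Log2 RMA values (y axes, scaled per gene) of 8 of the genes on each array, by genotype, with the group mean and SD; points within a group are ordered by value. Igtp, Gbp3, Bst2 and Oasl2 show a low and narrow ApcKO group, Rsad2 and Oas2 reach their highest values in IhhKO_ApcKO, and Irf1 has similar means in all 3 groups.

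The 4 GTPases that interferon gamma induces, which coat and break the vacuoles of intracellular microbes, had mean differences of -0.40 for ApcKO minus WT and 0.40 for IhhKO_ApcKO minus ApcKO. For ApcKO minus WT all 4 were lower at an unadjusted p under 0.05, against 3.12% of all genes, and each had a limma adjusted p of 0.97. Gbp3 had the smallest p of the 36 genes in that comparison. Its WT arrays lay between 7.30 and 7.79 (median 7.48), its ApcKO arrays between 6.88 and 7.36 (median 7.13) and its IhhKO_ApcKO arrays between 7.09 and 8.05 (median 7.45). Of the 8 ApcKO arrays, 7 lay below every WT array; B5 was the exception. The difference was -0.42 (SE 0.12, 95% interval -0.66 to -0.17, 1.33-fold lower, limma adjusted p = 0.97).

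Igtp, which encodes the immunity-related GTPase Irgm3, had the smallest p of the 36 genes between IhhKO_ApcKO and ApcKO. It ran from 6.95 through 7.38 to 8.20 in WT (lowest, median, highest), from 6.81 through 7.12 to 7.29 in ApcKO and from 7.05 through 7.88 to 8.27 in IhhKO_ApcKO. Of the 9 IhhKO_ApcKO arrays, 8 lay above every ApcKO array; C3 lay inside the ApcKO range. The difference was 0.70 (SE 0.16, 95% interval 0.37 to 1.02, 1.62-fold higher, limma adjusted p = 0.14). Without C3 it was 0.79 and Igtp alone of the 36 passed (limma adjusted p = 0.047), and without B9 it was 0.73 (limma adjusted p = 0.063). With the code letter as a block, where B9 alone carries the difference, it was 0.36 (limma adjusted p = 0.86). Against WT, Igtp differed by -0.41 (SE 0.17) in ApcKO and by 0.29 (SE 0.16) in IhhKO_ApcKO. Gbp2 was at 9.01 ± 0.52 (SD, n = 7), 8.54 ± 0.36 (SD, n = 8) and 8.89 ± 0.28 (SD, n = 9) in WT, ApcKO and IhhKO_ApcKO, a difference of -0.47 (SE 0.18) for ApcKO minus WT. Irgm1, a regulator of the other immunity-related GTPases, differed by -0.32 (SE 0.13) and 0.20 (SE 0.12); the former was -0.64 with the code letter as a block (limma adjusted p = 0.31), where A9 carries it.

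The chemokines Cxcl9 and Cxcl10, ligands of the chemokine receptor Cxcr3, had the largest mean difference of the role groups for ApcKO minus WT, -0.54, but also wide spreads. Cxcl9 ran from 6.68 through 7.58 to 8.49 in WT, from 5.92 through 7.08 to 7.66 in ApcKO and from 6.39 through 7.38 to 7.97 in IhhKO_ApcKO. Its groups overlapped widely, and the difference of -0.66 had an SE of 0.27 (limma adjusted p = 0.97). Cxcl10 averaged 9.02 ± 0.55 on the WT arrays (SD, n = 7), 8.61 ± 0.28 on the ApcKO arrays (SD, n = 8) and 8.70 ± 0.30 on the IhhKO_ApcKO arrays (SD, n = 9). The IhhKO_ApcKO mean of Cxcl10 was closer to ApcKO than to WT, with differences of 0.085 (SE 0.17) from ApcKO and -0.33 (SE 0.18) from WT. It was highest on WT A8 (9.90), without which the difference from WT was -0.18.

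Bst2 encodes tetherin, which holds budding virus at the cell surface. It ran from 9.83 through 10.40 to 10.88 in WT, from 9.58 to 10.20 in ApcKO (mean 9.97) and from 9.96 through 10.44 to 10.98 in IhhKO_ApcKO. All 8 ApcKO arrays lay below the WT mean, with a difference of -0.36 (SE 0.14). Of the IhhKO_ApcKO arrays, 5 of 9 lay above every ApcKO array, with a difference of 0.45 (SE 0.13, limma adjusted p = 0.41), or 0.50 without B9 (limma adjusted p = 0.18). Rtp4, a chaperone of membrane receptors, ranged from 5.75 on B9 to 7.47 on C1 within IhhKO_ApcKO and differed by -0.42 (SE 0.20) in ApcKO. Ifi35 and the apoptosis factor Xaf1 differed by -0.089 (SE 0.10) and -0.17 (SE 0.086) for ApcKO minus WT.

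The 7 genes of the ubiquitin-like and ADP-ribosylation group had mean differences of -0.12 and 0.17. Isg15, the ubiquitin-like modifier itself, ran from 5.19 through 5.35 to 5.69 in WT, from 5.13 through 5.37 to 5.50 in ApcKO and from 5.26 through 5.67 to 6.13 in IhhKO_ApcKO. WT and ApcKO overlapped nearly completely, and 4 of 9 IhhKO_ApcKO arrays lay above every WT array. Its difference was -0.053 (SE 0.12) for ApcKO minus WT, 0.31 (SE 0.11, limma adjusted p = 0.71) for IhhKO_ApcKO minus ApcKO and 0.25 (SE 0.11, limma adjusted p = 0.62) for IhhKO_ApcKO minus WT. Usp18, which removes ISG15 from proteins and dampens the type I receptor, differed by -0.27 (SE 0.16) and 0.33 (SE 0.15). Herc6, the mouse ligase of ISG15, differed by -0.08 (SE 0.11) and 0.18 (SE 0.099). The ligase gene Trim25 had the smallest ApcKO minus WT difference of the 36 genes, -0.033 (SE 0.059). Dtx3l and its partner Parp9 differed by -0.19 (SE 0.080) and -0.099 (SE 0.083), and Parp14 by -0.13 (SE 0.084).

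**Figure D4:**
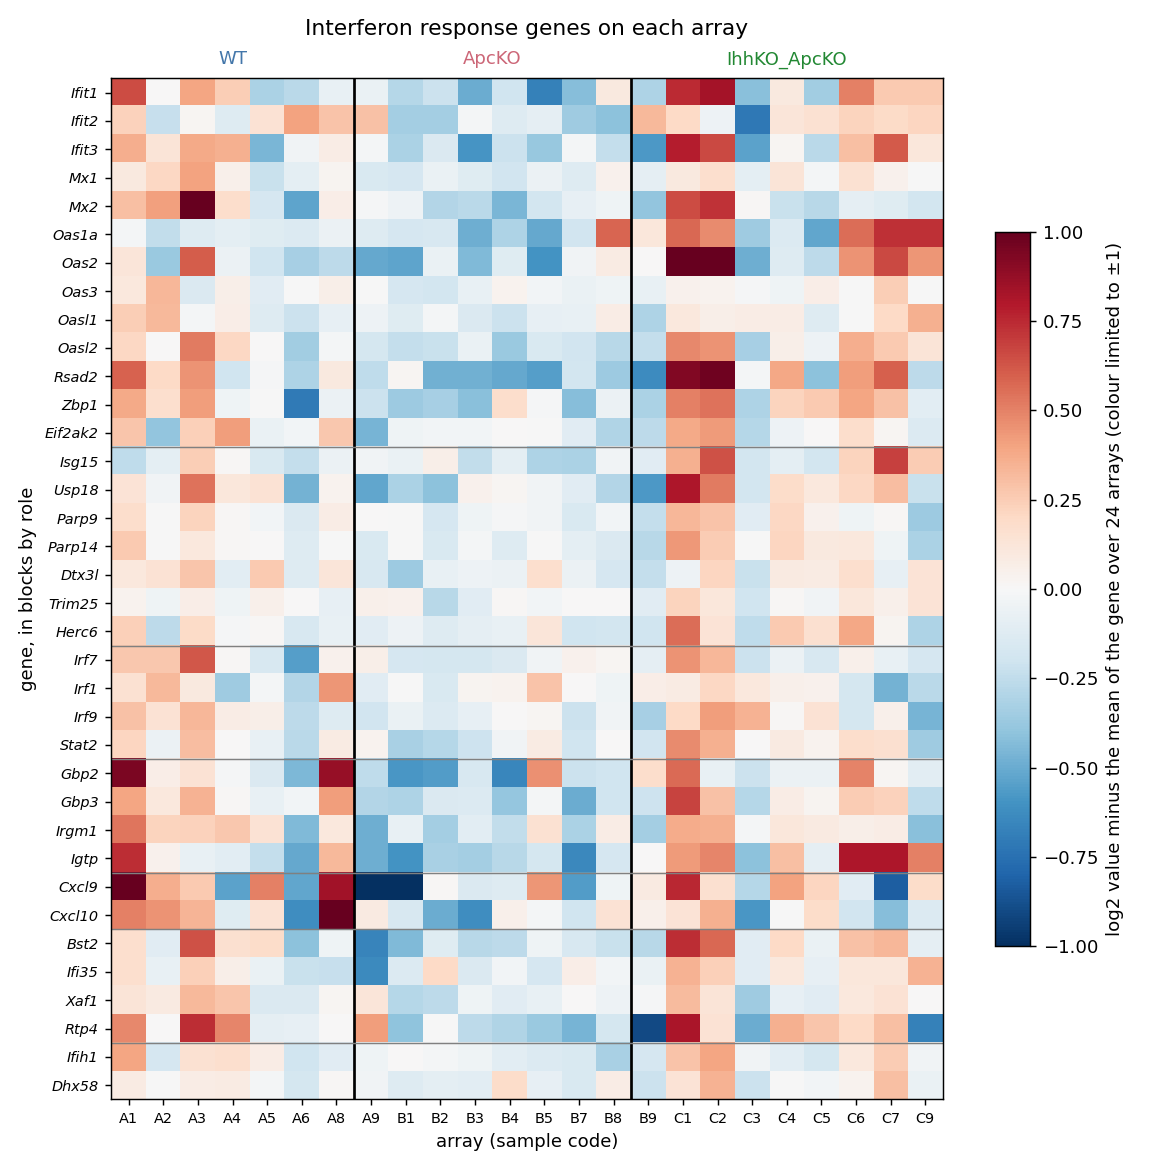
Log2 value of each of the 36 genes (rows, in blocks by role) on each of the 24 arrays (columns, by genotype) minus the gene's mean over all arrays; red is above and blue below that mean, and colours stop at 1 log2 unit either way. C1 and C2 are red in nearly all rows, A6, B9 and C3 are mostly blue, and the ApcKO columns are pale blue.

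Single arrays carried the whole list up or down together. On IhhKO_ApcKO C1 and C2, 35 and 34 of the 36 genes lay above their mean over all arrays, and on WT A1 34 did. On WT A6 and IhhKO_ApcKO C3 only 2 and 5 did. The ApcKO arrays had between 2 and 11 genes above that mean. Beside this, Epcam was at 7.43 on A6 and 4.73 on C3, its lowest level, and the part of epithelial RNA in these array levels was not tested; with the epithelial marker mean as a covariate the mean differences were -0.22 for ApcKO minus WT and 0.24 for IhhKO_ApcKO minus ApcKO. With the leukocyte marker mean as a covariate they were -0.23 and 0.28.

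The spread between arrays was smallest in ApcKO for 29 of the 36 genes (80.6%), against 39.3% of all genes. The median SD of the list was 0.248 in WT, 0.157 in ApcKO and 0.294 in IhhKO_ApcKO, where all genes had 0.145, 0.135 and 0.147. The 7 genes whose SD was not smallest in ApcKO were Ifit2, Oas1a, Gbp2, Cxcl9, Ifi35, Dhx58 and Trim25. Equality of the spreads was not tested.

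The genes also varied together within genotypes. After group means were subtracted, the median Pearson correlation over their 630 pairs was 0.44 on 24 arrays, with 93.3% of pairs above 0, against a median of 0.02 with 52.4% above 0 among 3083 genes taken evenly from the upper part of all genes by mean level. Points in such correlations share the array, its RNA amplification and its normalization. The closest pairs were Irf7 with Mx2 (r = 0.92), Usp18 with Bst2 (0.90) and Parp9 with Parp14 (0.89), the last being gene neighbours. By genotype the median pair correlation was 0.53 on 7 WT arrays, 0.08 on 8 ApcKO arrays and 0.55 on 9 IhhKO_ApcKO arrays. Correlated with the mean of the other 35, 29 genes were above 0.5 in WT, 6 in ApcKO and 29 in IhhKO_ApcKO. The genes nearest to that mean over 24 arrays were Oasl2 (r = 0.87, rho = 0.70) and Zbp1 (r = 0.86, rho = 0.82), and the farthest were Ifit2 (0.06), Oas3 (0.17) and Irf1 (0.22). Its chromosome 19 neighbours Ifit1 (r = 0.81) and Ifit3 (0.77) were near the mean, and Ifit2 was not. Probes for such related genes (the IFIT, OAS, GBP and immunity-related GTPase families) can share sequence, so their single values are less certain than those of genes without close relatives.

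**Figure D5:**
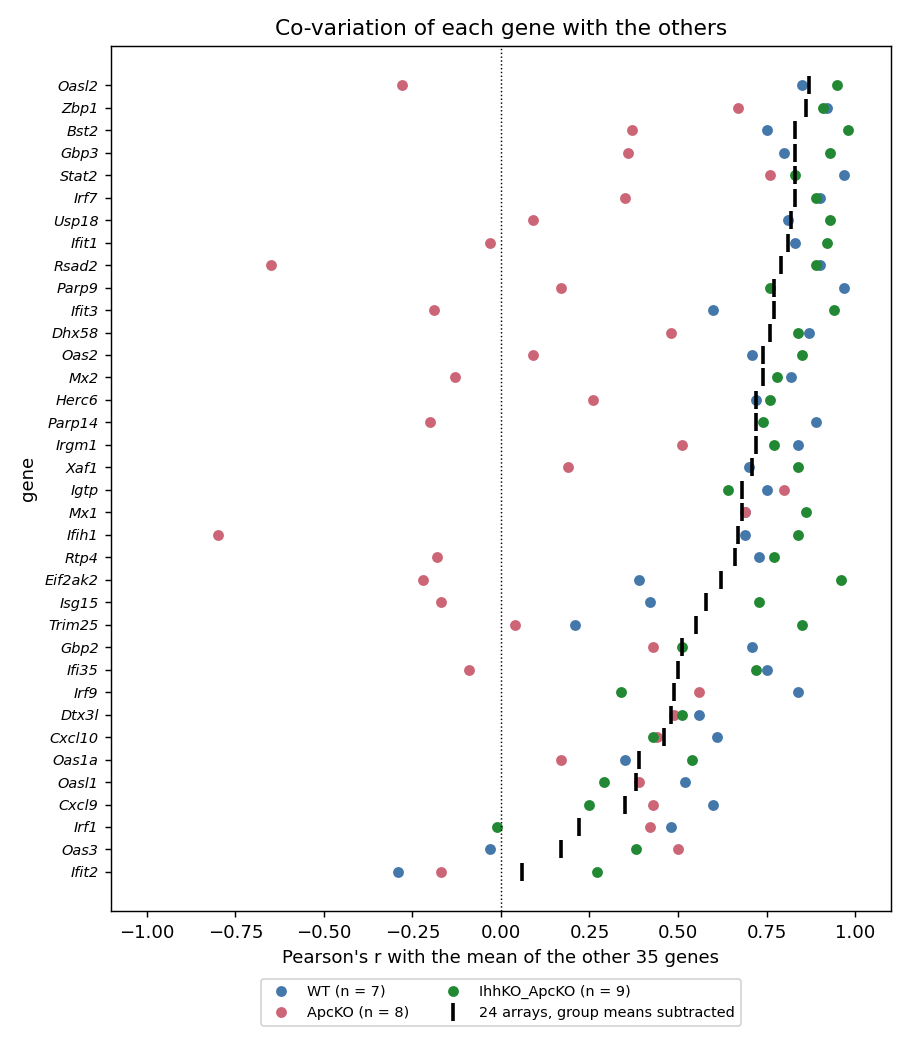
Pearson's r of each gene with the mean of the other 35 genes (x axis) within WT (7 arrays), ApcKO (8 arrays) and IhhKO_ApcKO (9 arrays), and over all 24 arrays after group means were subtracted (black ticks, by which genes are ordered). WT and IhhKO_ApcKO points lie mostly above 0.5, with 29 of 36 genes each, while ApcKO points scatter from -0.80 to 0.80.

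Of the genes upstream of the list, none passed. The 11 interferon ligand genes measured averaged 4.86, 4.80 and 4.81 in WT, ApcKO and IhhKO_ApcKO. Of the 11, 9 were lower in ApcKO than in WT, against 60.6% of all genes. In IhhKO_ApcKO, 4 of 11 were higher than in ApcKO, against 56.6%. Ifnb1, the first type I interferon made on infection, was at 4.51, 4.46 and 4.58, and Ifng, the product of T and NK cells, at 3.55, 3.42 and 3.51, both under the negative control median. In WT the ligand genes ran from 3.01 (Ifnk) to 6.78 (Ifnl3), on both sides of that median. The 9 receptor and kinase genes were present at levels such as 7.94 for Ifnar1 and 9.06 for Ifngr1 in WT, with differences between -0.11 and 0.11 for ApcKO minus WT and 0 of 9 called. Of 9 signalling and feedback genes, 0 passed in any comparison; Socs1, an inhibitor of the receptor kinases, differed by -0.16 (SE 0.067) in ApcKO and -0.17 (SE 0.065) in IhhKO_ApcKO against WT. Of 11 nucleic acid sensing genes, 0 passed, and Ddx58 (RIG-I) differed by -0.26 (SE 0.11) and 0.17 (SE 0.10). Over arrays, the mean of the ligand genes had a correlation of -0.09 (rho 0.03) with the mean of the 36 genes, after group means were subtracted.

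Other interferon-induced genes, not among the 36, went the same way. Of 38 such genes measured, 34 were lower in ApcKO than in WT, against 60.6% of all genes. In IhhKO_ApcKO, 35 were higher than in ApcKO, against 56.6% of all genes, and 0 passed in either comparison. Gbp7, a further guanylate-binding protein, was at 8.54 ± 0.35 (SD, n = 7), 8.04 ± 0.25 (SD, n = 8) and 8.63 ± 0.30 (SD, n = 9), with differences of -0.50 (SE 0.14) and 0.59 (SE 0.13, limma adjusted p = 0.15). Of 10 genes of the immunoproteasome and antigen processing, 10 were lower in ApcKO than in WT, against 60.6% of all genes. Between IhhKO_ApcKO and ApcKO, 9 of the 10 were higher in IhhKO_ApcKO, against 56.6% of all genes, and 0 passed in either comparison. Psmb8, a catalytic subunit of the immunoproteasome, differed by -0.27 (SE 0.082) and 0.29 (SE 0.077, limma adjusted p = 0.28). Within groups, the mean of the 36 genes correlated with that of the other interferon-induced genes at r = 0.90 (rho = 0.87, and r = 0.86 without C1 and C2, the arrays farthest from the median) and with that of the antigen processing genes at r = 0.81 (rho = 0.81, r = 0.80 without them). With the leukocyte marker mean r was -0.35 (rho = -0.34, r = -0.22 without them) and with the epithelial marker mean -0.14 (rho = -0.13, r = -0.07 without them). With the fibroblast marker mean r was 0.39 (rho = 0.31), with the Hedgehog feedback genes -0.44 (rho = -0.51) and with Xist 0.49 (rho = 0.57). Without C1 and C2 these were 0.24, -0.51 and 0.46. B9, whose Hedgehog feedback mean was 8.83 against 7.72 for its group, enters the Hedgehog correlation, which was not computed without it. The part of the fibroblast and Hedgehog lists in the levels of the 36 genes was not tested. These lists were gathered with results of these data known, so the values describe and do not test.

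Among all other named genes, those whose values most resembled the mean of the 36, by Pearson's r over 24 arrays with group means subtracted, were Gm12250 (r = 0.85), Gm4951 (0.82), F830016B08Rik (0.82), Iigp1 (0.81), Lgals3bp (0.79), Phf11d (0.77), Tmem258 (0.76), Get4 (0.74), Man2b2 (0.74) and Slfn8 (0.73). Gm12250 had differences of -0.60 for ApcKO minus WT and 0.87 for IhhKO_ApcKO minus ApcKO (limma adjusted p = 0.25), and Iigp1, another immunity-related GTPase, -0.39 and 0.58. Get4 had differences of 0.03 and 0.02, so likeness over arrays within groups did not always go with the group differences. Without C1 and C2 the correlations ranged from 0.64 for Man2b2 to 0.88 for Gm12250.

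Genes with an ISRE core in the promoter window had larger median differences than those without. For ApcKO minus WT the medians were -0.35 for the 15 genes with and -0.15 for the 12 without, and for IhhKO_ApcKO minus ApcKO they were 0.34 and 0.12. The ranges overlapped, from -0.47 to -0.053 with and from -0.66 to -0.033 without in the former, and from 0.085 to 0.70 with and from -0.046 to 0.41 without in the latter. Isg15, with 3 ISRE matches, had the smallest ApcKO minus WT difference of the genes with the motif (-0.053), and Cxcl9, with neither motif, the largest of all 36 (-0.66). Of the genes with a GAS core alone, Irf1, Ifit2 and Ifi35 were at -0.046, 0.24 and 0.22 for IhhKO_ApcKO minus ApcKO. The 9 genes with no window listed had medians of -0.21 and 0.18. Whether genes with and without the motif differ was not tested.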

How the data were processed

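Each array is 1 sample. The authors deposited log2 intensities after RMA, per the submitters' processing notes. The software version is not given in the sources used here, nor is the build. RMA usually equalises the arrays' distributions, so a shift shared by most genes could not be seen. Of 72688 probe sets, 6732 controls were left out; 31388 had 1 gene in the platform annotation, 1362 had several and 33206 none, and the brightest probe set stood for each of 30827 genes. No dim genes were filtered out, and no array columns were left unassigned. Differences were fitted with limma 3.58.1 in R 4.3.3 (lmFit, eBayes) on all 24 arrays in 1 model, with Benjamini-Hochberg adjustment over the 30827 genes and a threshold of 0.05, and the script was tested on simulated data. Promoter windows and positions came from RefSeq GRCm38.p6. The precision is limited by the number of arrays. The 36 genes, the other lists and the tests were chosen with earlier results of these data known. Every gene of the list could be named; values by group are given for those with the 5 smallest p of a contrast and others at the ends of level or spread. For other lists those with the 3 smallest p, and the 10 genes most like the mean of the 36, could be named. Cd68 was named besides for its level. Alternatives were median centring, an intensity trend with robust moderation, array weights, the upper part of genes by mean, probe set means, only the arrays compared, the code letter as a block, leukocyte or epithelial markers as a covariate and leaving out each array; the Xist covariate was added after seeing the data.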

Additional observations from a re-analysis of the deposited data

Results flagged for a closer look

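In 9 of 111 sets of values (each of the 36 genes, and their mean, in each genotype), the highest or lowest array stood apart from the next by more than Dixon's 95% limit, which chance gives in about 1 set of 20. In ApcKO, array B5 was high for Irf1 (9.34, next 9.09), Gbp2 (9.27, next 8.65) and Herc6 (6.95, next 6.78), B8 was high for Oas1a (7.06, next 6.35), and A9 was low for Ifi35 (7.13, next 7.60). In WT, array A6, which also had the lowest mean of the 36 genes, was low for Zbp1 (6.41, next 7.06) and Dhx58 (5.98, next 6.14). In IhhKO_ApcKO, C3 was low for Ifit2 (6.13, next 6.80) and C7 high for Oas3 (5.72, next 5.54).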

How the results depend on the processing

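The direction of the mean difference over the 36 genes held for ApcKO minus WT under all alternatives run (-0.29 to -0.20). For IhhKO_ApcKO minus ApcKO it held (0.20 to 0.30) except when the letter of the sample code was a block (-0.034), a value that B9 alone decides; there Bst2 (-0.062), Oasl2 (-0.027) and Rsad2 (-0.27) turned too, and Oas2 fell to 0.25. For IhhKO_ApcKO minus WT the block gave -0.29, and Cxcl10 (0.050), Igtp (-0.15) and Oas2 (-0.19) turned, with Isg15 at 0.072; without single arrays the mean difference ran from -0.043 (A6) to 0.049 (A1). Genes of the 36 called were 0 in all comparisons and alternatives, except 1 (Igtp) for IhhKO_ApcKO minus ApcKO with array weights (0.73, limma adjusted p = 0.049) and without C3 (0.79, limma adjusted p = 0.047); counts without single arrays were thus 0 to 1. Over all genes, ApcKO minus WT called 0 genes (0 to 0 without single arrays), and 113 with the block. IhhKO_ApcKO minus ApcKO called 14, with median centring 8, array weights 65, the upper part of genes 23, the block 53, and 8 (without C6) to 41 (without B9) without single arrays; A9 gave 25, and B4, B5, C1 and C7 gave 9 each. IhhKO_ApcKO minus WT called 25, with median centring 16, array weights 45, only the arrays compared 7, the block 84, and 12 (without A5 or A6) to 67 (without B9) without single arrays; A1 and C7 gave 16, A4, A8 and C6 15, and C4 13. The cause of these changes was not tested. The digits of the sample codes recur across genotypes, but nothing in the labels says that they pair samples, and no paired fit was made. Signal limits the dimmer genes: 6 of the 36 had means above the 95th percentile of the negative controls (8.214), and all were above their median (4.649).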
